A study of Bos taurus with 179 samples.

Results

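Transcripts of 5 genes were followed through bovine oocyte growth: the Aurora kinases *AURKA* (ENSBTAG00000013009), *AURKB* (ENSBTAG00000001717) and *AURKC* (ENSBTAG00000003261), and the chromosomal passenger genes *BIRC5* (ENSBTAG00000013573) and *CDCA8* (ENSBTAG00000014326). They were taken by symbol from the study's supplementary list of genes expressed in every size group, so their detection throughout growth was set by the choice, and they are 5 of the 21218 gene IDs counted. Growing *Bos taurus* oocytes were freed from abattoir ovaries, denuded, measured and frozen singly, and a library of polyadenylated mRNA was sequenced from each. Of 179 deposited oocytes, those that the study kept were used, 97 in library replicate 1 (reads of 150 bp) and 68 in replicate 2 (reads of 75 bp). By diameter they fall into groups of < 60 μm (n = 21), 60–69 μm (n = 25), 70–79 μm (n = 23), 80–89 μm (n = 24), 90–99 μm (n = 21), 100–109 μm (n = 18), 110–119 μm (n = 19) and > 120 μm (n = 14). The groups differ in no labelled agent or genotype, and no breed or age is labelled. The dissection medium held heparin and cilostamide, a phosphodiesterase inhibitor that keeps oocytes in meiotic arrest. Fully grown oocytes were aspirated before the cortex was sliced to free growing ones, and since the labels do not say whether aspirated oocytes are among those sequenced, handling and size cannot be told apart for the largest oocytes. Ovaries of several animals may stand behind a group, but the animal is not labelled, so the p-values below measure the spread between sums of oocytes of 2 library replicates, which may be partly technical.

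Aurora kinases are serine/threonine kinases of cell division. Aurora A works at spindle poles and is needed to build the meiotic spindle of an oocyte, which has no centrioles. Aurora B is the catalytic subunit of the chromosomal passenger complex, which corrects faulty attachments of chromosomes to the spindle and later acts in cytokinesis, and Aurora C, a close paralog found mainly in germ cells, can fill the same place in the complex during meiosis. Survivin (*BIRC5*) and borealin (*CDCA8*) bind the scaffold protein INCENP and bring the complex to centromeres; *INCENP* was not analysed here. A growing oocyte is arrested in prophase of the first meiotic division and stores such mRNAs for the divisions that follow.

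The total count per oocyte lay between 277126 and 8038061, with a median of 1763520. Levels are given in CPM, an oocyte's counts scaled to the same normalised total for all oocytes, so they are shares of the polyadenylated RNA that was captured, and molecules per oocyte cannot be read from them. No transcript length was used, so the levels of different genes are not ranked against each other. Symbols of marker genes were paired with IDs in the study's lists of expressed and of lowly expressed genes. How many oocytes hold a marker was thus partly set by the list that gave its ID, and alone does not measure somatic cells. An ID was found for 5 of 12 listed oocyte markers, 4 of 12 granulosa and cumulus markers and 5 of 6 theca and stroma markers. Of the 5 oocyte markers with an ID, *BMP15*, *BTG4*, *CPEB1* and *BCAR4* had counts in every oocyte, and *ACTL8* in 116, with a median of 0 CPM at < 60 μm. With diameter 4 of these 5 were called higher (edgeR adjusted p below 0.05), where 14.8% of all genes were. They were *ACTL8* (log2 slope 0.42 per 10 μm), *BCAR4* (0.20), *BMP15* (0.15) and *BTG4* (0.13), and *CPEB1* was not called (0.0057, SE 0.038). Of the 4 granulosa markers with an ID, *GATM* had counts in 119 oocytes, *FSHR* in 45, *AMHR2* in 10 and *CYP11A1* in 9. Their summed level had a group median between 0.251 CPM (110–119 μm) and 9.29 CPM (< 60 μm), with 65.6 CPM in the highest oocyte. *GATM* fell with diameter (log2 slope −0.64 per 10 μm, SE 0.10, edgeR adjusted p = 8.46e-05). Of the 5 markers of theca and stroma, *COL1A2* and *ACTA2* each had counts in 143 oocytes, *ACTG2* in 15, *COL3A1* in 4 and *COL1A1* in 2, and the summed level had a group median between 6.38 and 21.2 CPM. *COL1A2* rose with diameter, as 4 of the members did (0.27, SE 0.086, edgeR adjusted p = 0.0205), while the theca and stroma sum was correlated with diameter at r = 0.084 and with the members at r between −0.083 and 0.14. The granulosa sum was correlated with diameter at r = −0.58 over the oocytes, as a description, and with the members at r = −0.37 for *AURKC*, −0.22 for *CDCA8*, −0.13 for *AURKA*, −0.10 for *AURKB* and 0.10 for *BIRC5*. The part of these cells in the members' trends was not tested.

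All 5 genes had counts in each of the 97 and 68 oocytes, and with every oocyte reduced to 250000 counts, only *AURKB* was missed, in 3 oocytes. Against diameter, 4 of the 5 genes were upregulated as oocytes grew (*AURKC*, *AURKB*, *AURKA* and *CDCA8*), and *BIRC5* was not called in either direction. Of 14087 genes tested, 14.8% were called higher in this comparison and 18.1% lower. The median slope of the 5 genes was 0.096 on the log2 scale per 10 μm of diameter, and that of all genes tested was −0.016. Slopes came from edgeR's quasi-likelihood test on counts summed per size group and replicate (16 sums), with the replicate as a term and Benjamini-Hochberg adjustment over all genes.

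**Figure D1:**
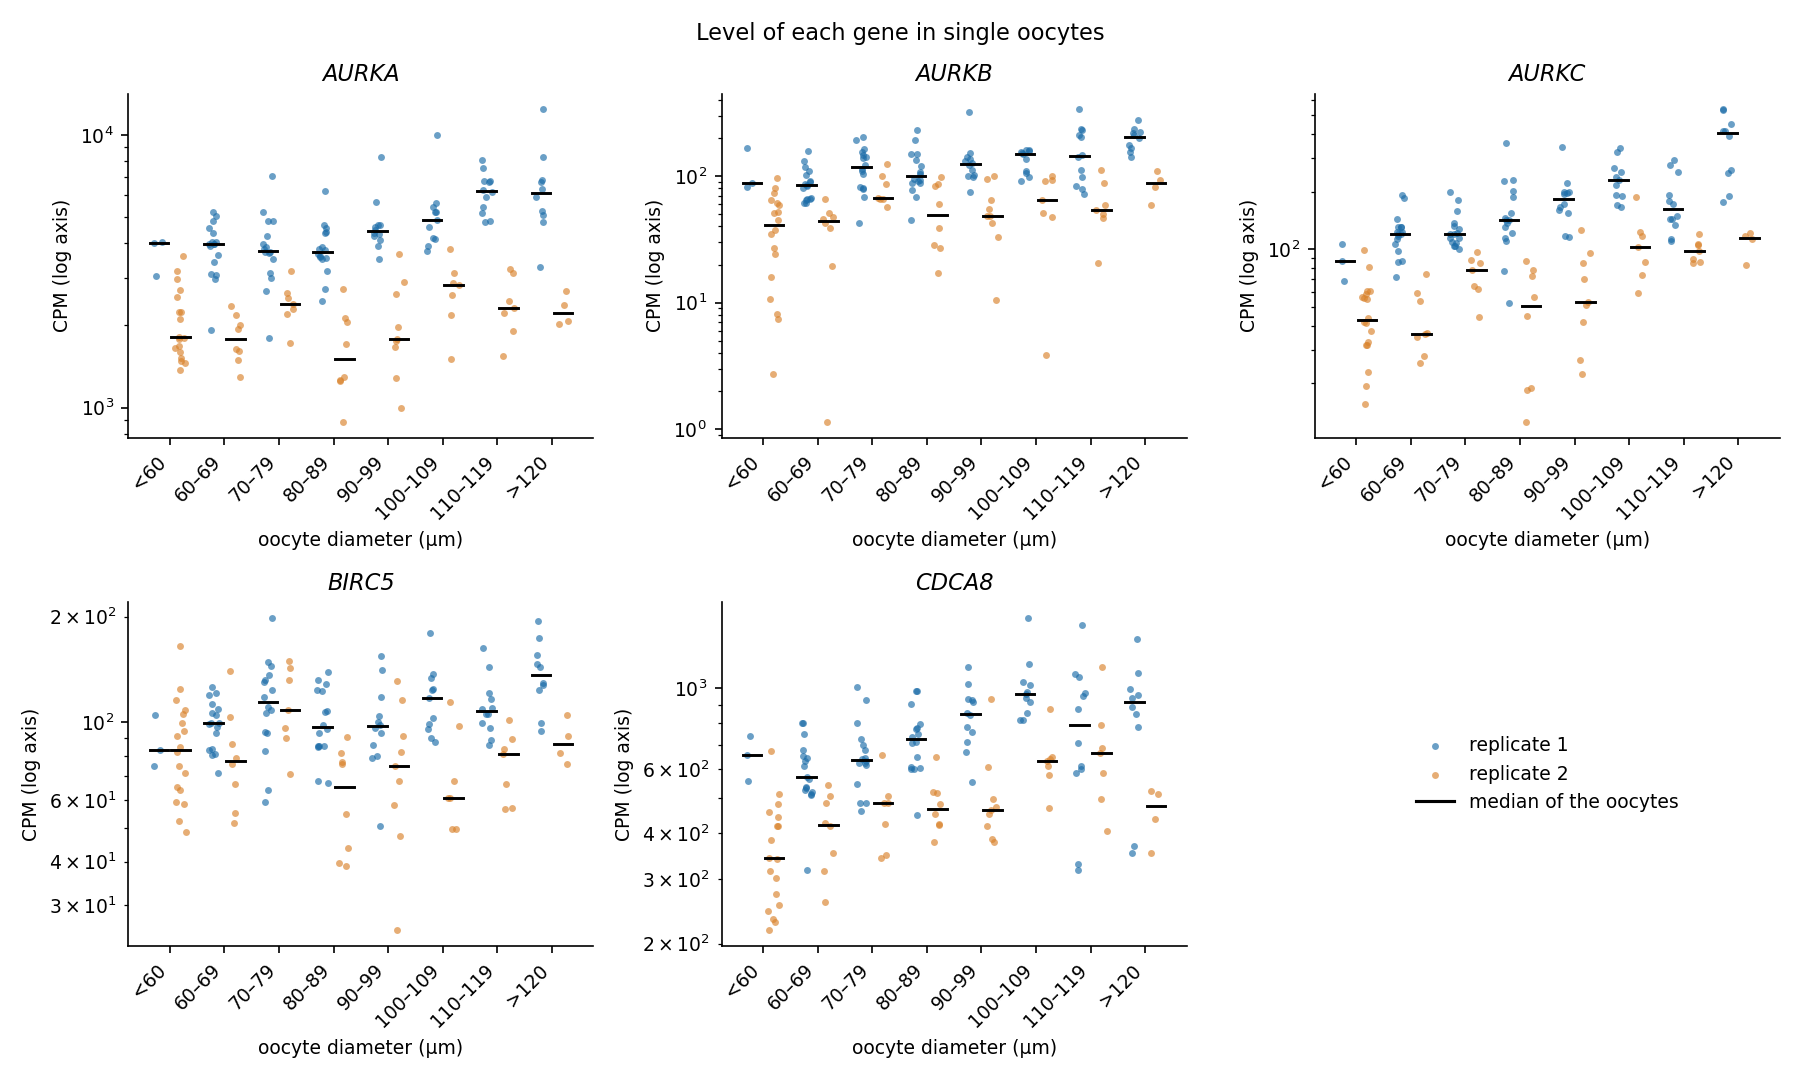
Level of each gene (CPM, log axis) in single oocytes by diameter group; each point is an oocyte, blue for replicate 1 and orange for replicate 2, and black bars are medians of the oocytes. *AURKC* has its highest medians at > 120 μm in both replicates (401.6 and 115 CPM), replicate 2 lies below replicate 1 for *AURKA*, *AURKB* and *AURKC* in every group, and a few oocytes of replicate 2 lie far below the rest for *AURKB*.

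*AURKC*, the germ cell paralog, had the steepest slope of the 5 genes. Its medians in replicate 1, taken from the smallest to the largest of the 8 groups, were 87.1, 120.0, 119.8, 142, 183, 229.8, 161 and 402 CPM. In replicate 2 the corresponding medians were 42.7, 36.3, 78.2, 50.5, 52.8, 102, 98.1 and 115 CPM. At < 60 μm the lowest, median and highest oocytes of replicate 2 (n = 18) had 15.7, 42.7 and 98.7 CPM, and at > 120 μm the 4 oocytes lay between 83.0 and 121.7 CPM. The 3 oocytes of replicate 1 at < 60 μm (68.3 to 106.6 CPM) were all below the 10 at > 120 μm (177 to 537 CPM), whereas the ranges of replicate 2 overlapped. The summed counts rose by 0.21 per 10 μm on the log2 scale (SE 0.031, edgeR adjusted p = 2.52e-05), a factor of 1.16. The slope was 0.21 in replicate 1 alone (SE 0.046) and 0.21 in replicate 2 alone (SE 0.040), with edgeR adjusted p = 0.0102 and 0.00194.

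*AURKA*, the spindle pole kinase, made up a median of 0.354% of an oocyte's normalised counts. Its medians in replicate 1 were 4031, 3992, 3766, 3719, 4427, 4859, 6212 and 6142 CPM from the smallest to the largest group. Those of replicate 2 were 1809, 1791, 2398, 1506, 1787, 2815, 2320.3 and 2224 CPM. Up to 89 μm the medians of replicate 1 stayed between 3719 and 4031 CPM, and the 3 highest medians were those of the oocytes of 100 μm and more; in replicate 2 the median at 70–79 μm was the second highest. The highest oocyte (> 120 μm, replicate 1) reached 12442.5 CPM and the lowest (80–89 μm, replicate 2) had 886 CPM. The slope was 0.096 per 10 μm (SE 0.030, edgeR adjusted p = 0.0179). Within one replicate it did not pass the threshold, with 0.13 (SE 0.047, edgeR adjusted p = 0.0712) in replicate 1 and 0.062 (SE 0.031, edgeR adjusted p = 0.182) in replicate 2, and the difference between these slopes was −0.068 (SE 0.058, edgeR adjusted p = 0.696).

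*AURKB*, the passenger kinase of somatic cells, had medians of 88.5, 85.3, 117.9, 99.3, 125, 150.9, 145 and 204.2 CPM in replicate 1 and of 41.4, 44.0, 67.4, 49.4, 48.6, 65.2, 54.3 and 87.9 CPM in replicate 2, again from the smallest to the largest group. In both replicates the highest median belonged to the oocytes > 120 μm. The 10 oocytes of replicate 1 in this group lay between 141 and 275.6 CPM and those of < 60 μm between 82.7 and 167 CPM, so that the ranges overlapped. The slope was 0.10 per 10 μm (SE 0.029, edgeR adjusted p = 0.00889). It was 0.13 (SE 0.041, edgeR adjusted p = 0.0381) in replicate 2 and 0.079 (SE 0.041, edgeR adjusted p = 0.197) in replicate 1, and these slopes differed by 0.049 (SE 0.057, edgeR adjusted p = 0.786).

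*AURKB* also varied most between oocytes of one size. After removal of the means of size group and replicate, the SD of log2(CPM + 1) was 0.83 for *AURKB*, 0.54 for *AURKC*, 0.40 for *BIRC5*, 0.40 for *CDCA8* and 0.39 for *AURKA*. The spread was larger in replicate 2, with an SD of 1.15 for *AURKB* against 0.52 in replicate 1. In replicate 2, 5 of the 68 oocytes had less than 10 CPM of *AURKB* (a limit chosen after the values were seen), 3 at < 60 μm, 1 at 60–69 μm and 1 at 100–109 μm, and in replicate 1 none of 97 did. These 5 oocytes had between 4 and 12 *AURKB* counts in totals of 1463106 to 3992387, beside a median total of 1763520 over all oocytes. The other 4 genes had lower medians in these 5 oocytes than in the other 63 of the replicate as well. The medians were 1486 against 2183 CPM for *AURKA*, 37.4 against 62.1 CPM for *AURKC*, 65.5 against 81.5 CPM for *BIRC5* and 420.3 against 472.1 CPM for *CDCA8*. *AURKA* lay between 1298 and 1657 CPM in the 5 and between 886 and 3814 CPM in the 63. What sets these oocytes apart was not tested.

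*CDCA8*, borealin, had medians of 655, 571, 634, 723, 849, 964, 791 and 913 CPM in replicate 1 and of 342, 422, 483, 468, 464.9, 629, 662 and 475.4 CPM in replicate 2. The highest median was at 100–109 μm in replicate 1 and at 110–119 μm in replicate 2, and in both replicates the median at > 120 μm lay below it. The slope over all groups was 0.093 per 10 μm (SE 0.030, edgeR adjusted p = 0.0218). It was 0.088 (SE 0.049, edgeR adjusted p = 0.223) in replicate 1 alone and 0.097 (SE 0.033, edgeR adjusted p = 0.0506) in replicate 2 alone. Its largest spread was at 110–119 μm, where the 12 oocytes of replicate 1 ranged from 317.9 to 1488 CPM, with a median of 791 CPM.

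*BIRC5*, survivin, had no called slope. Its medians were 83.4, 99.2, 114.6, 96.8, 97.5, 117, 107 and 137 CPM in replicate 1 and 83.5, 77.3, 108.6, 65.2, 74.8, 60.8, 81.4 and 86.6 CPM in replicate 2. The lowest and the highest of all oocytes had 25.5 and 198.8 CPM. The slope was 0.023 per 10 μm (SE 0.029, edgeR adjusted p = 0.571), with 0.052 (SE 0.044) in replicate 1 and −0.0039 (SE 0.037) in replicate 2.

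The order of the 8 groups was compared with the spread between oocytes, on log2(CPM + 1) with replicate means removed. For *AURKC* the order from lowest to highest was < 60, 60–69, 80–89, 70–79, 90–99, 110–119, 100–109 and > 120 μm, with means from −0.50 (SD 0.65, n = 21) to 1.00 (SD 0.51, n = 14). *AURKA* was lowest at 80–89 μm, −0.29 (SD 0.39, n = 24), and highest at > 120 μm, 0.37 (SD 0.46, n = 14). *CDCA8* was lowest at < 60 μm, −0.36 (SD 0.44, n = 21), and highest at 100–109 μm, 0.45 (SD 0.26, n = 18). Groups next to each other in this order differed by less than their mean SD for all 5 genes, but sorting by the means itself makes such steps small. Between groups that neighbour in diameter, 2 of the 35 steps exceeded the mean SD, both of *AURKC*: 0.68 from 110–119 to > 120 μm (mean SD 0.51) and 0.55 from 90–99 to 100–109 μm (mean SD 0.52). The steps of *BIRC5* from 110–119 to > 120 μm (0.29, mean SD 0.29) and of *CDCA8* from 90–99 to 100–109 μm (0.29, mean SD 0.29) were just below it. From the lowest to the highest group the means differed by 1.505 for *AURKC*, 1.28 for *AURKB*, 0.81 for *CDCA8*, 0.66 for *AURKA* and 0.49 for *BIRC5*.

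The 3 Aurora paralogs were then set against each other by the log2 ratio of their summed counts, in which the length of the genes cancels once slopes are compared. The ratio of *AURKA* to *AURKC* fell as oocytes grew, from 40.0 at < 60 μm to 20.1 at > 120 μm in replicate 1 and from 44.5 to 21.2 in replicate 2. In between it ran through 32.98, 33.5, 24.2, 27.6, 31.6 and 36.7 in replicate 1 and through 44.4, 32.4, 33.1, 28.5, 23.9 and 23.3 in replicate 2. Its slope was −0.11 per 10 μm on the log2 scale (SE 0.025, 16 sums, two-sided permutation p = 0.00061, adjusted over 3 pairs 0.00183).

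The ratio of *AURKB* to *AURKC* fell as well, with a slope of −0.10 per 10 μm (SE 0.030, permutation p = 0.00507, adjusted p = 0.00760). In replicate 1 it was 1.32 at < 60 μm and 0.511 at > 120 μm, and in replicate 2 it was 0.947 and 0.824. The lowest ratio of replicate 2, 0.568, was at 100–109 μm. With the mean of log2(CPM + 1) over oocytes in place of summed counts, in which single oocytes with little *AURKB* weigh more, the slope was −0.076 (SE 0.037) and missed the threshold (permutation, adjusted p = 0.0990).

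The ratio of *AURKA* to *AURKB* showed no called slope, with −0.011 per 10 μm (SE 0.029, permutation p = 0.709, adjusted p = 0.709). It lay between 30.4 and 48.9 in replicate 1 and between 25.7 and 46.9 in replicate 2. Its slope had opposite signs in the replicates, 0.050 (SE 0.031) in replicate 1 and −0.069 (SE 0.040) in replicate 2, with exact permutation p = 0.161 and 0.136. Within one replicate of 8 sums, the fall of *AURKA* against *AURKC* passed in replicate 2 (slope −0.15, SE 0.017, exact permutation p adjusted over 3 pairs 0.000818) and not in replicate 1 (slope −0.073, SE 0.044, adjusted 0.161). That of *AURKB* against *AURKC* passed in neither, with −0.12 (SE 0.046, adjusted 0.111) in replicate 1 and −0.084 (SE 0.042, adjusted 0.136) in replicate 2; a difference between the replicates was not tested. How reads that match more than one paralog were counted is not given in the sources used here, and the span of *AURKC* overlaps that of *ZNF805* in the RefSeq annotation of ARS-UCD2.0, so reads of these genes may be shared.

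**Figure D2:**
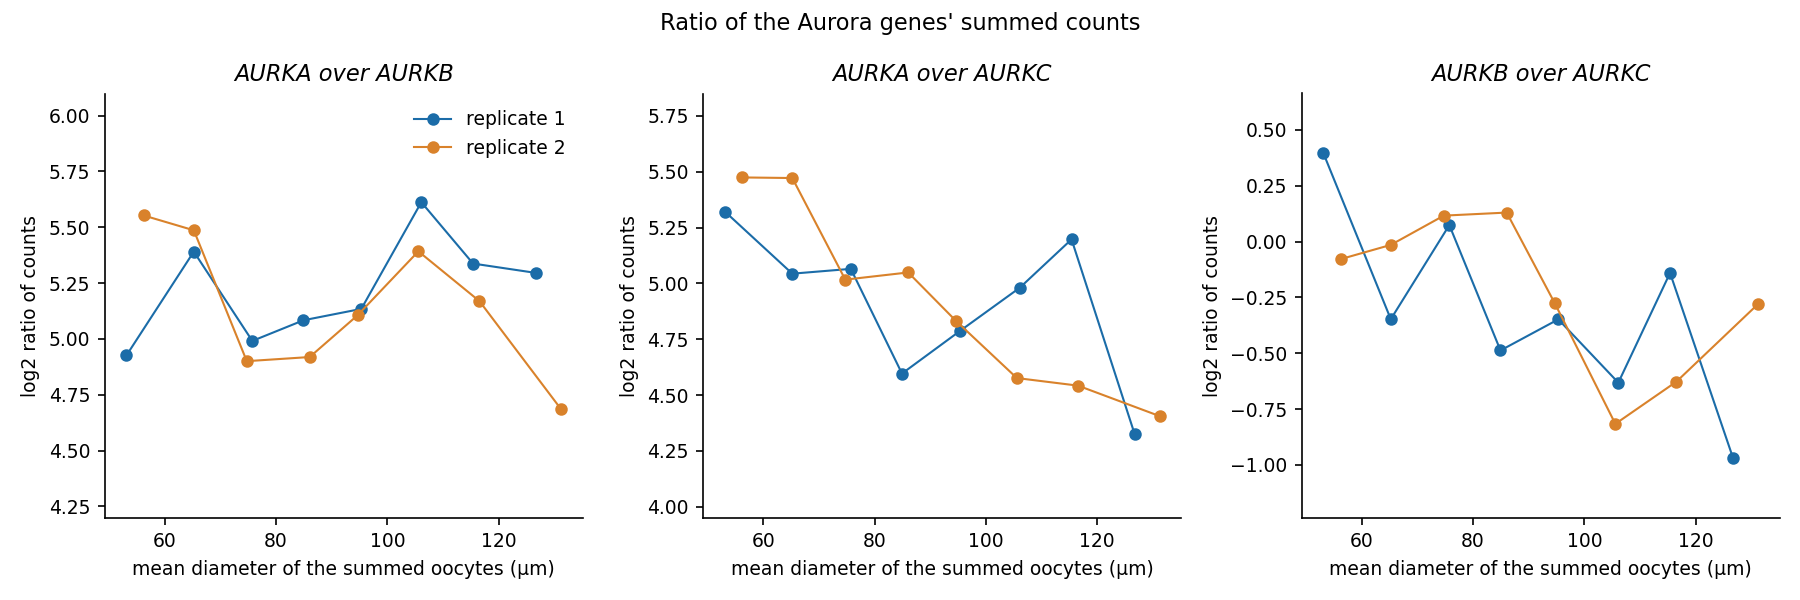
The log2 ratio of summed counts of each pair of Aurora genes against the mean diameter of the summed oocytes, 8 size groups in each replicate (blue, replicate 1; orange, replicate 2). All panels span the same height on the log2 scale; the ratio of *AURKA* to *AURKC* falls from 5.32 to 4.33 in replicate 1 and from 5.47 to 4.41 in replicate 2.

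Between successive stages of growth no member passed the threshold. In oocytes of 70–79 μm against those below 70 μm, 0 of the 5 genes were called by edgeR, beside 0.135% of all genes, and 1 had an unadjusted p below 0.05, *AURKB* (log2 fold change 0.62, SE 0.22, edgeR adjusted p = 0.503). From 70–79 to 80–99 μm, 0 of 5 were called, as were 0.00% of all genes, and *BIRC5* alone had an unadjusted p below 0.05 (log2 fold change −0.49, SE 0.22, edgeR adjusted p = 0.881). From 80–99 to 100–109 μm the 5 estimates were all above 0 but 0 of 5 were called, beside 0.497% of all genes. *AURKA* (0.65, SE 0.24) and *AURKC* (0.69, SE 0.24) had the largest estimates there, with edgeR adjusted p = 0.196 and 0.191, and DESeq2 called *AURKA* among 514 of 14087 genes. From 100–109 to 110–119 μm, 0 of 5 were called, beside 3.88% of all genes, and 0 had an unadjusted p below 0.05; the estimates ran from −0.27 for *AURKC* to 0.05 for *AURKB*. From 110–119 to > 120 μm, 0 of 5 were called, beside 0.00710% of all genes, and *AURKC* had the largest estimate (0.66, SE 0.29, edgeR adjusted p = 0.439). DESeq2 called 0 of 5 in the other 4 of these 5 comparisons.

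The shares of all genes in these comparisons rest on single sums. The 19 genes called between oocytes below 70 μm and those of 70–79 μm became 176 without the < 60 μm sum of replicate 2, and 2 to 6 without any 1 of the 60–69 or 70–79 μm sums. From 80–99 to 100–109 μm the 70 became 0 without the 80–89 or the 90–99 μm sum of replicate 2 or the 100–109 μm sum of replicate 1, and 291 without the < 60 μm sum of replicate 2. From 100–109 to 110–119 μm the 547 became 0 without either of these sums of replicate 1, and 1478 and 1446 without those of replicate 2. From 110–119 to > 120 μm the 1 gene became 295 without the 110–119 μm sum of replicate 2, and from 70–79 to 80–99 μm at most 1 gene was called. In each of these fits 0 of the 5 members were called.

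The ends of growth were compared directly. Of the 5 genes, 2 were called higher at > 120 μm than at < 60 μm, where 9.36% of all genes were called higher, 9.80% lower and 19.2% in either direction. *AURKC* was 3.18 times higher (log2 fold change 1.67, SE 0.30, edgeR adjusted p = 0.000881). *AURKB* was 1.82 times higher (0.86, SE 0.26, edgeR adjusted p = 0.0270), a call that was lost without the < 60 μm sum of replicate 2 (0.74, edgeR adjusted p = 0.133) or without the > 120 μm sum of replicate 1 (1.01, adjusted 0.0691) or of replicate 2 (0.85, adjusted 0.103). *AURKA* (0.63, SE 0.28, edgeR adjusted p = 0.124), *CDCA8* (0.46, SE 0.27, adjusted 0.249) and *BIRC5* (0.34, SE 0.27, adjusted 0.393) were not called by edgeR, whereas DESeq2 called 3 of the 5, *AURKA* included (0.66, SE 0.24, DESeq2 adjusted p = 0.0318). The median of the 5 was 0.63 and that of all genes −0.12. Replicate 1 holds 3 oocytes at < 60 μm and replicate 2 holds 4 at > 120 μm, so 1 sum at each end rests on few oocytes. The 2700 genes called here became 1093 without the < 60 μm sum of replicate 1, 1125 without the > 120 μm sum of replicate 1 and 1518 without that of replicate 2.

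**Figure D3:**
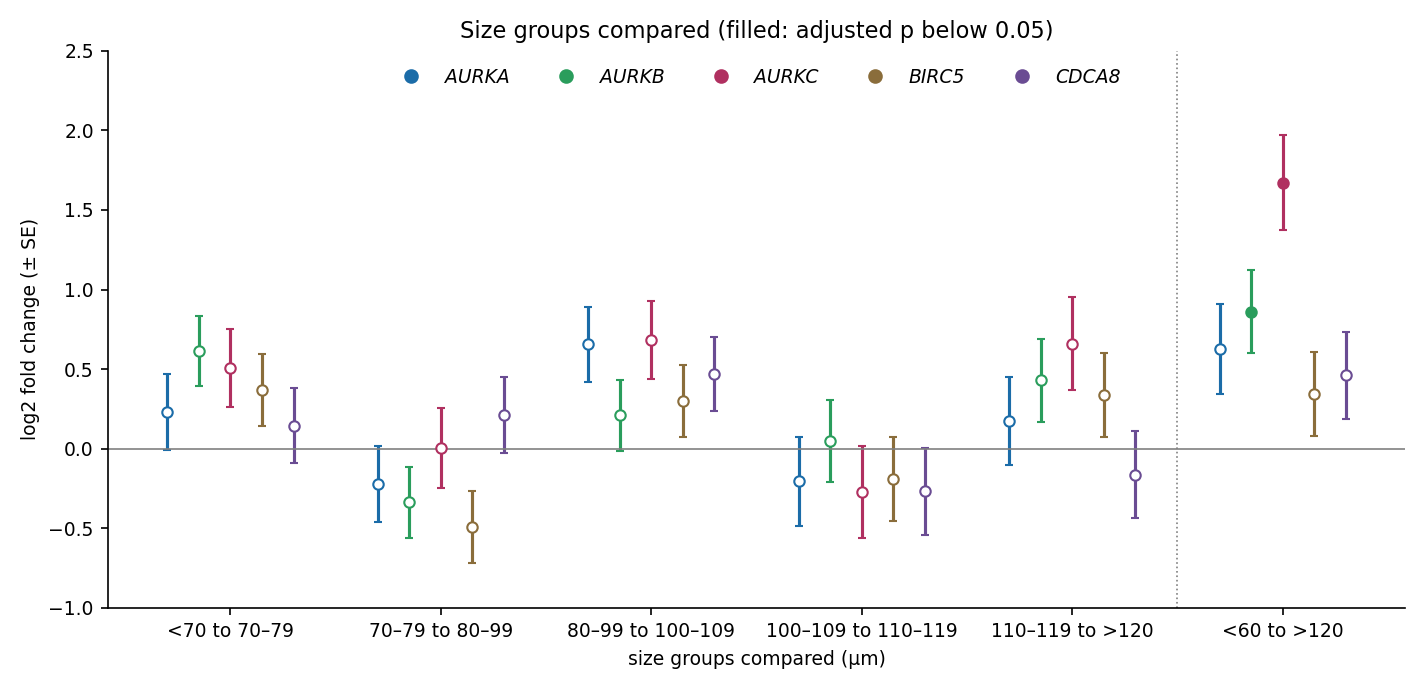
Log2 fold change with its SE of each gene between successive size groups and, right of the dotted line, between the smallest and the largest oocytes; filled points passed an adjusted p of 0.05 in edgeR's test on 16 sums. Filled points are those of *AURKB* (0.86) and *AURKC* (1.67) between < 60 and > 120 μm.

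All 5 genes differed in level between the library replicates. In each of the 8 groups the CPM of the summed counts was higher in replicate 1 than in replicate 2 for every one of the 5 genes, although the medians over oocytes of *BIRC5* at < 60 μm were alike (83.4 and 83.5 CPM). The median of the 8 ratios was 2.35 for *AURKA* (range 1.92 to 2.91), 2.21 for *AURKC* (1.57 to 3.33), 2.19 for *AURKB* (1.88 to 2.96), 1.62 for *CDCA8* (1.14 to 1.95) and 1.33 for *BIRC5* (1.08 to 1.89). The sums of *AURKA* did not overlap between the replicates (3372 to 6936 CPM against 1523 to 2533 CPM), nor did those of *AURKB* (98.8 to 177 CPM against 37.3 to 92.5 CPM). Of 13115 genes with at least 160 counts over the sums, 14.9% were shifted more than 2-fold towards replicate 1 by the same median and 13.6% towards replicate 2. Read length, library batch and the animals cannot be told apart as the source of this difference.

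Across single oocytes, levels were correlated as a description, on log2(CPM + 1) with replicate means removed; the oocytes share library batches, and possibly animals. With diameter, r was 0.61 for *AURKC* (rho 0.62), 0.44 for *CDCA8* (rho 0.49), 0.41 for *AURKA* (rho 0.42), 0.38 for *AURKB* (rho 0.38) and 0.08 for *BIRC5* (rho 0.09), over the 97 and 68 oocytes. *AURKA* had r = 0.59 in replicate 1 and 0.20 in replicate 2, and *BIRC5* 0.32 and −0.12, while *AURKC* had 0.69 and 0.55. When the 2 oocytes whose diameter lay farthest from the median were left out, r was 0.60 for *AURKC* and 0.40 for *AURKA*. With the log2 total count of an oocyte, r was −0.26 for *AURKC*, −0.17 for *CDCA8* and between −0.05 and 0.02 for the others.

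Between the genes themselves, the 3 Aurora pairs had the highest r of the 10 pairs, an order that did not hold within size groups or within replicate 1. The r was 0.59 for *AURKA* with *AURKB*, 0.59 for *AURKA* with *AURKC* and 0.53 for *AURKB* with *AURKC*. With the means of size group and replicate removed, so that differences between size groups no longer contribute, these were 0.57, 0.46 and 0.43, beside 0.45 for *AURKA* with *BIRC5*. In replicate 1 the r of *AURKA* with *BIRC5* was 0.66, that of *AURKA* with *AURKC* 0.56 and that of *AURKB* with *AURKC* 0.61. *BIRC5* had r = 0.47 with *AURKA*, 0.41 with *AURKB*, 0.38 with *AURKC* and 0.0024 with *CDCA8*, its partner in the complex. The r of *BIRC5* with *CDCA8* was 0.24 in replicate 1 and −0.22 in replicate 2. *CDCA8* was closest to *AURKC* (0.43) and *AURKA* (0.40), and within size groups these values were 0.22 and 0.35.

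**Figure D4:**
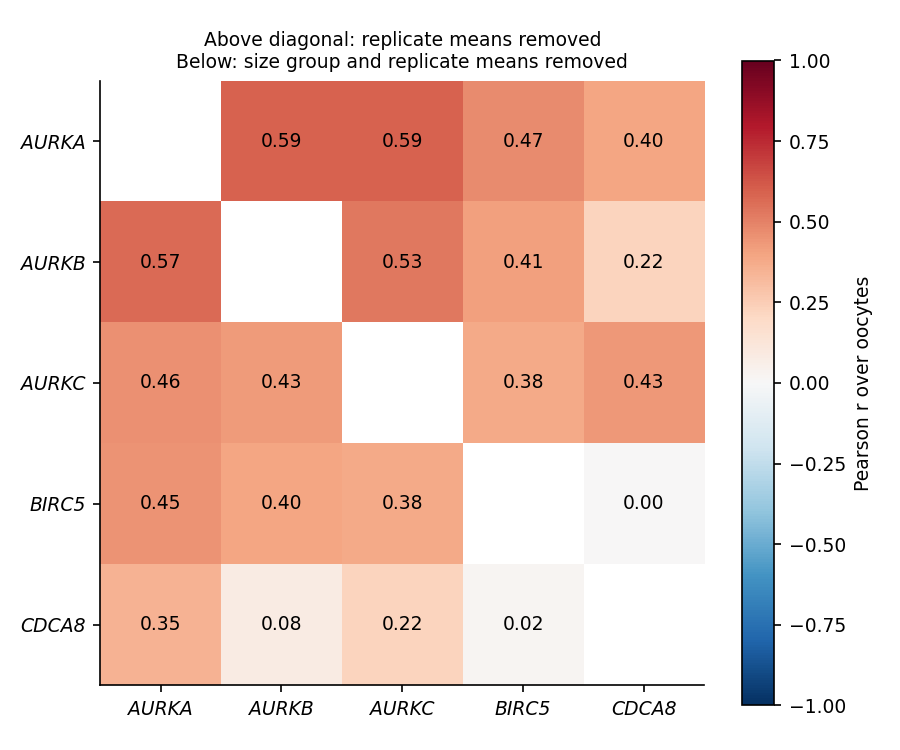
Pearson r between the 5 genes over the 97 and 68 oocytes on log2(CPM + 1), with replicate means removed above the diagonal and the means of size group and replicate removed below it; red is positive and blue negative. The 3 Aurora pairs have 0.53 to 0.59 above the diagonal and 0.43 to 0.57 below it, and *BIRC5* with *CDCA8* is near 0 in both.

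The genes with a symbol whose pattern was most like each member were searched among 2273 genes over the same oocytes. The filter on single oocytes kept 11065 genes, most of them without a known symbol. Genes named below all begin with A, B or C, so genes closer to a member may lie among those not compared. For *AURKA* they were *CHCHD3* (r = 0.74), a protein of the inner mitochondrial membrane, *CCNB2* (0.69), a mitotic cyclin, and *BUD23* (0.69). *AURKB* was followed by *COQ4* (0.75), of coenzyme Q synthesis, *BCS1L* (0.75), an assembly factor of respiratory complex III, and *CCNQ* (0.69). *AURKC* was followed by *AKR1A1* (0.74), an aldehyde reductase, *BUD23* (0.74) and *CCDC32* (0.73). The values were lower for *CDCA8*, with *ACCSL* (0.60), *ARHGAP25* (0.58) and *BMP15* (0.56), a growth factor secreted by the oocyte, and for *BIRC5*, with *BABAM1* (0.56), *CPEB1* (0.54) and *CCT7* (0.53). The median r over all genes compared lay between 0.017 and 0.052 for the 5 genes.

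Partners of these kinases were read from fixed lists, of which only the genes with a known ID could be used. Of 6 tested activators and partners of Aurora A, 4 were upregulated with diameter (14.8% of all genes) and 0 downregulated (18.1%), with a median slope of 0.13 beside −0.016 for all genes. They were *CDC25B* (0.25, SE 0.04, edgeR adjusted p = 5.18e-05), the phosphatase that activates CDK1, *CEP192* (0.21, SE 0.03, adjusted 5.68e-06), a centrosome scaffold that binds Aurora A, *AJUBA* (0.13, SE 0.04, adjusted 0.0212) and *BORA* (0.13, SE 0.04, adjusted 0.00902), both cofactors of the kinase. *CKAP5* (0.026, SE 0.029) and *AURKAIP1* (−0.040, SE 0.026) were not called. Between < 60 and > 120 μm, 2 of these 6 were called, both higher (9.36% of all genes), *CDC25B* (1.78, SE 0.35) and *CEP192* (1.57, SE 0.29). Thinning called 4, where it called 2687 of 10814 genes in either direction.

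Of 12 tested genes that recruit or regulate the passenger complex, 2 were upregulated and 4 downregulated, with a median slope of −0.0029, where 14.8% of all genes rose and 18.1% fell. The 4 lower calls became 2 without the 110–119 μm sum of replicate 2 or without the > 120 μm sum of either replicate, and the 2 higher calls became 4 without the 100–109 μm sum of replicate 1. The cyclin *CCNB2* (0.18, SE 0.03, edgeR adjusted p = 0.000170) and its kinase *CDK1* (0.14, SE 0.04, adjusted 0.0163) rose. The heterochromatin proteins *CBX3* (−0.25, SE 0.05, adjusted 0.000477) and *CBX1* (−0.18, SE 0.04, adjusted 0.000915) fell, as did the checkpoint kinases *BUB1B* (−0.10, SE 0.03, adjusted 0.0109) and *BUB1* (−0.089, SE 0.031, adjusted 0.0315), the second of which marks centromeres for the complex. *BUB3*, *CBX5*, *CCNB1*, *BOD1*, *CDCA2* and *CDCA5* were not called, with slopes from −0.014 to 0.088. At the ends of growth *CCNB2* (1.27, SE 0.30) was called higher (9.36% of all genes) and *CBX3* (−2.09, SE 0.40) lower (9.80%). Without the < 60 μm or the > 120 μm sum of replicate 1 these counts of 1 and 1 became 0 and 1. Without the 110–119 μm sum of replicate 1 they became 2 and 2, and without that of replicate 2 or either 100–109 μm sum 2 and 1. DESeq2 and thinning each gave 2 and 3, where they called 3435 of 14087 and 2687 of 10814 genes in either direction.

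Of 6 tested substrates and effectors of the passenger kinase, 1 rose, the kinetochore motor *CENPE* (0.15, SE 0.04, edgeR adjusted p = 0.00775), and 1 fell, the citron kinase *CIT* of cytokinesis (−0.17, SE 0.03, adjusted 0.000176), about the shares of all genes called (14.8% and 18.1%). *CENPA*, *CENPC*, *ANLN* and *CHMP4B* had slopes between −0.040 and 0.0034 and were not called. Among 5 tested genes that share a name with *BIRC5* or *CDCA8*, 2 were called higher, *CDCA4* (0.16, SE 0.06, adjusted 0.0354) and *BIRC3* (0.14, SE 0.05, adjusted 0.0410), and 1 lower, *BIRC2* (−0.12, SE 0.04, adjusted 0.0240). With oocytes thinned to equal depth, or without the 60–69 μm sum of replicate 1, 0 of the 5 were called in either direction. Among the other fits with 1 sum left out, the higher calls numbered 1 or 2 and the lower 0 or 1, beside 14.8% and 18.1% of all genes in the trend. *BIRC7* had counts in 33 oocytes and did not pass the filter on low counts. Of 5 tested genes typical of dividing cells, *CKAP2* (0.18), *ASPM* (0.18) and *CENPF* (0.11) were called higher, and *CDC20* (0.10, SE 0.05, adjusted 0.0958) and *CCNA2* (0.015, SE 0.037, adjusted 0.784) were not.

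**Figure D5:**
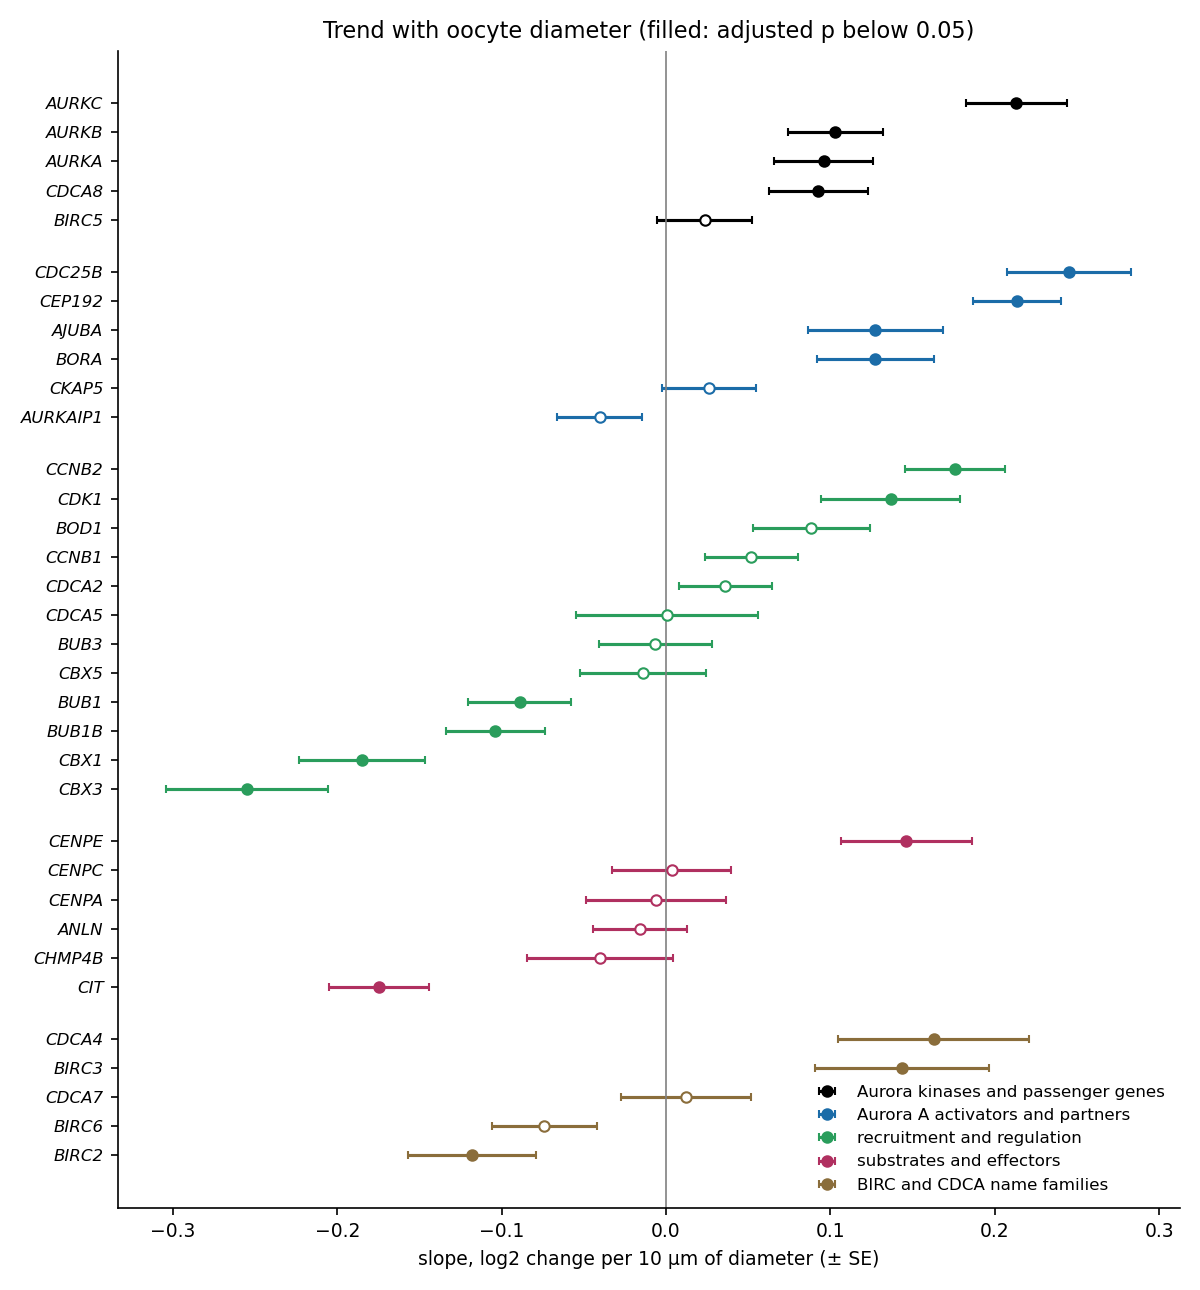
Slope with diameter (log2 change per 10 μm, bars ± SE, edgeR on 16 sums) of the 5 genes and of the genes in the partner lists; filled points passed an adjusted p of 0.05. *AURKC* (0.21) lies to the right of the other 4, and the activators and partners of Aurora A lie mostly right of 0. The recruitment genes lie on both sides, from −0.25 (*CBX3*) to 0.18 (*CCNB2*).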

How the data were processed

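Single oocytes were sequenced from polyadenylated mRNA (Smart-seq2), 1 library each, in 2 library replicates. The deposited values are raw read counts per gene, which the authors made by trimming with Trim Galore 0.6.6, alignment with HISAT2 to ARS-UCD1.2 and counting in SeqMonk; the treatment of strand and of multiple alignments is not given in the sources used here. The deposited table is neither normalised nor batch-corrected; for their own analysis the authors corrected the replicates with ComBat-seq. No column was left unused. IDs were paired with symbols from the supplementary lists of expressed and of lowly expressed genes. The first was held only in part, and 3608 of 21218 IDs had a symbol. Each of the 5 genes stands on 1 line of the table; *CDK1* and *ACTA2*, on 2 lines each, were summed.

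Counts of the 165 oocytes were summed per size group and replicate. Genes were filtered (filterByExpr, minimum count 10, minimum total 15), normalised (TMM) and tested with edgeR 4.0.16 (quasi-likelihood, R 4.3.3), with the replicate as a block and Benjamini-Hochberg adjustment; calls were made at 0.05. The trend covariate was the mean diameter of a sum's oocytes. The replicate number marks a shared library batch, and the deviations of its sums from their group means were correlated between the groups (28 pairs of groups, lowest r 0.398, highest 0.694). Ratios of paralogs (0.5 added to each count) were tested by 100000 permutations of the size groups within replicate, or by all orders within 1 replicate. Single-oocyte levels used log2(CPM + 1). The fits were tested on simulated data.

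Alternatives were no block, RLE normalisation, DESeq2 1.42.0, no filter, 250000 counts per oocyte, all 179 oocytes, first lines of repeated IDs, each oocyte as its own unit, on raw counts or on counts adjusted by ComBat-seq (sva 3.50.0), and each sum left out; each replicate alone was added for the trend after seeing the data. The members and gene lists were chosen with earlier results of these data known. Genes named are the 5 members, the fixed lists, and per member the 3 genes with the highest r; the oocytes with little *AURKB* were chosen after their values were seen. Lengths and sequences were not used here, and coordinates (RefSeq, ARS-UCD2.0) only to find overlapping genes.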

Additional observations from a re-analysis of the deposited data

Results flagged for a closer look

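Outlying oocytes were looked for in 40 sets of 4 to 10 oocytes, with Dixon's criterion on log2(CPM + 1). It marked 3 sets, all of *AURKB* in replicate 2, where chance marks about 1 set in 20. The lowest oocyte of 60–69 μm had 1.14 CPM, against 19.4 CPM in the next lowest and 66.5 CPM in the highest of 8. At 100–109 μm the lowest had 3.87 CPM and the next 47.1 CPM (n = 7), and at 90–99 μm the lowest had 10.5 CPM and the next 32.8 CPM (n = 9). These sets hold, for each of the 5 genes, the groups of replicate 2 except < 60 μm and in replicate 1 the group of > 120 μm alone; the other groups had 3 or more than 10 oocytes and were not searched, so the replicates cannot be compared by this count.

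The 14 deposited oocytes outside the kept set entered no comparison above. More than 3 counts were found in 12 of them for *AURKA*, in 11 for *CDCA8*, in 9 for *AURKC*, in 9 for *BIRC5* and in 6 for *AURKB*. In the 7 of them whose total was not below the lowest kept total, *AURKA* lay between 787 and 4137 CPM and *AURKB* between 0 and 217.8 CPM.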

How the results depend on the processing

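The trend calls of *AURKA*, *AURKB*, *AURKC* and *CDCA8* held in each of the 16 fits that left out 1 sum and under RLE normalisation, DESeq2, no filter, thinning, all oocytes, first lines and both fits on single oocytes. Without the replicate block, 1 of 5 genes was called in the trend, *AURKC*, and the slopes of *AURKA* (0.11), *AURKB* (0.090) and *CDCA8* (0.089) missed the threshold; 0 of 5 were called between < 60 and > 120 μm, with 0.75 for *AURKB* and 1.77 for *AURKC*. Without that block, calls over all genes went from 4642 to 2192 in the trend and from 2700 to 81 at the ends, and the Aurora A partners had 2 trend calls, the recruitment genes 2, the substrates 1 and the genes of shared name 0. Replicate 1 alone called 1 of 5 slopes (*AURKA* 0.13, *AURKB* 0.079 and *CDCA8* 0.088 were lost) and replicate 2 alone 2 of 5 (*AURKA* 0.062 and *CDCA8* 0.097 were lost; *BIRC5* turned to −0.0039), beside 2632 and 2557 of 14087 genes. With 1 sum left out, slopes ranged from 0.093 to 0.12 for *AURKA*, 0.10 to 0.13 for *AURKB*, 0.20 to 0.24 for *AURKC*, 0.019 to 0.045 for *BIRC5* and 0.091 to 0.13 for *CDCA8*, and between < 60 and > 120 μm 1 to 2 members were called. Single oocytes as units called 1, 1, 3, 0 and 1 members in the successive comparisons and 4 at the ends; ComBat-seq counts called 1, 0, 3, 0 and 1, and 5 at the ends; DESeq2 called 1 at 80–99 to 100–109 μm and 3 at the ends. At the ends these fits on single oocytes called 4493 of 11065 and 4337 of 11054 genes, and DESeq2 3435 of 14087; from 80–99 to 100–109 μm they called 669, 727 and 514. In the other comparisons with a member called, single oocytes gave 834, 316 and 741 genes. ComBat-seq counts called a member in the first and the last of these. They gave fewer than 834 of 11054 genes in the first and 688 in the last. From 100–109 to 110–119 μm, *AURKA* turned positive with thinning (0.060) and single oocytes (0.10, ComBat-seq 0.11), and *BIRC5* with thinning (0.087); none was called. Among uncalled values with 1 sum left out, signs turned for *AURKC* from 70–79 to 80–99 μm (−0.14 to 0.23) and from 100–109 to 110–119 μm (−0.57 to 0.0075), for *BIRC5* there (−0.40 to 0.14), and from 110–119 to > 120 μm for *AURKA* (−0.083 to 0.37) and *CDCA8* (−0.41 to 0.041). The slope of *AURKA* against *AURKC* stayed between −0.13 and −0.10 with 1 sum left out, that of *AURKB* against *AURKC* between −0.13 and −0.085 and that of *AURKA* against *AURKB* between −0.030 and 0.015. Replicate 1 alone gave −0.073, −0.12 and 0.050 for these pairs, and replicate 2 alone −0.084 for *AURKB* against *AURKC*; the mean over oocytes gave −0.076 for that pair. The pairs kept their calls without the block. The cause of these changes was not tested. The levels at < 60 and > 120 μm moved by less than 1 SD with thinning and with all oocytes of sufficient total. From 100–109 to 110–119 μm, calls over all genes moved from 547 to 2 with all deposited oocytes and to 2038 with DESeq2.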
